A study of Mus musculus with 416 samples.

Results

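Gabra3, Gabra5, Gabrb2, Gabrg3 and Gabrd are 5 of the 19 listed genes for subunits of the GABA-A receptor. They were taken by symbol from the GENCODE M21 annotation of the Ensembl gene IDs, and are 5 of the 46517 IDs in the deposited table (ENSMUSG00000031343, ENSMUSG00000055078, ENSMUSG00000007653, ENSMUSG00000055026 and ENSMUSG00000029054). All 5 passed the filter on low counts, as did 22968 genes in all. The GABA-A receptor is a chloride channel of several subunits that opens when it binds GABA and carries most fast inhibition in the brain. Alpha and beta subunits form the GABA sites between them, while a gamma or a delta subunit completes the channel and sets where it sits and how it responds to drugs. Receptors with a gamma subunit are mostly synaptic and bind benzodiazepines. Receptors with delta lie outside synapses and carry a slow, tonic current. The spiny projection neurons that make up most of the striatum both release and receive GABA.

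The RNA came from the dissected striatum of drug-naïve J:DO mice, the Diversity Outbred stock, in which each animal has its own mixture of founder genomes. The mice fall into 6 groups by labelled sex and breeding generation, with 76, 60 and 72 libraries labelled female and 74, 59 and 75 labelled male in generations 21, 22 and 23. The labels give no treatment and no age, and the animal numbers in their titles make every library a separate animal. Levels are in CPM, the gene's count scaled to the depth of its library with TMM factors, and are given as mean ± SD over libraries, and differences are log2 fold changes ± SE.

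Library totals ran from 20331737 to 77458200 counts (median 43516282), so that the median count of a member ran from 449 (Gabra5) to 6836 (Gabrb2). Striatal identity was high in most libraries: the spiny neuron genes Drd1, Adora2a and Rgs9 had medians of 309.7, 202.6 and 666 CPM. Their lowest values were 1.53, 1.40 and 4.13 CPM. In 29 libraries the total was low or the correlation with the others was low, and 29 libraries, 15 labelled female and 14 labelled male, had an Xist level that went against the label. 4 libraries were in both sets. Where leaving out the libraries that stand apart changed the call of a member or moved a called value much, that value is given too. The labels do not separate generation from the time or batch in which animals were raised and libraries made, so generation and such differences cannot be told apart. In bulk tissue, fewer cells of a type and less RNA per cell cannot be told apart either.

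The 5 genes are spread over 4 chromosomes. Gabra3, on the X chromosome, encodes alpha 3, a subunit known from deep cortical layers, the reticular thalamus and monoaminergic neurons. Gabra5 and Gabrg3 are neighbours on chromosome 7. Gabra5 encodes alpha 5, best known from tonic inhibition of hippocampal pyramidal cells, and Gabrg3 encodes gamma 3, one of the gamma subunits. Gabrb2, on chromosome 11, encodes beta 2, one of the beta subunits that form the GABA site with an alpha subunit. Gabrd, on chromosome 4, encodes delta, which in the forebrain joins mainly with alpha 4.

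For 4 of the 5 genes RefSeq gives a promoter window, and the 250 bases before the first listed start are shown here because 3 of these genes (Gabra3, Gabra5 and Gabrb2) varied together over the libraries and Gabrg3 did not. The sequences are those of the RefSeq GRCm38.p6 reference and not of the mice, read 5′ to 3′ on the strand of the gene. Capitals mark CG and TATAAA, which was searched on both strands (as TATAAA or TTTATA). No match of one overlapped the other.
Gabra3, chrX:72656920-72657169, minus strand: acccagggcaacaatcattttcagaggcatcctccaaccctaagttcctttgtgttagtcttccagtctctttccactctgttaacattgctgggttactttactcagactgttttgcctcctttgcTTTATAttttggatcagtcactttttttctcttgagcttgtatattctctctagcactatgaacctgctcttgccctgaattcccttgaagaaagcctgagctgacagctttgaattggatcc
Gabra5, chr7:57510060-57510309, minus strand: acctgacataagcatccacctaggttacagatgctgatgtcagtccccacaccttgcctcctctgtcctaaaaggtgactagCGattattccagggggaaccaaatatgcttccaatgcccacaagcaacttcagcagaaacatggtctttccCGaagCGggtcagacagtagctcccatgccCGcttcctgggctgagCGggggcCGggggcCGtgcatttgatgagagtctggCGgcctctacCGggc
Gabrb2, chr11:42420190-42420439, plus strand: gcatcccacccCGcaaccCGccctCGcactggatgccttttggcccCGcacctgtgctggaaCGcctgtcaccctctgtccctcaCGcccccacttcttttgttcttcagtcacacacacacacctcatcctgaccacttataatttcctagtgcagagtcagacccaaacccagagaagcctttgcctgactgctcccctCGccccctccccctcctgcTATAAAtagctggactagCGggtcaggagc
Gabrg3, chr7:57387216-57387465, minus strand: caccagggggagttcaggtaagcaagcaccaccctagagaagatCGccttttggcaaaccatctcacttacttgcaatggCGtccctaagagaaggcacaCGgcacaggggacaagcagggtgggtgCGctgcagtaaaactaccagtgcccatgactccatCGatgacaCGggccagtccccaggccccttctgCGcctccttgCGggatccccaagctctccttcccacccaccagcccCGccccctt
The Gabra3 window holds no CG, as do 7.87% of all 32851 promoter windows of the same length, and its G and C content is 42.4%. The windows of Gabra5, Gabrb2 and Gabrg3 hold 9, 8 and 9 CG, against a median of 6 over all windows, and 56.4%, 58.8% and 60.4% G and C, against a median of 52.4%. A TATAAA match, found in 12.4% of all windows, starts 30 bases before the start of Gabrb2 used here. RefSeq lists 3 starts for Gabrb2. GENCODE M21 begins the gene at 42419757, so that this window lies inside the gene by that annotation. Another match, on the other strand, lies within the window of Gabra3, farther from its start. The windows of Gabra5 and Gabrg3 hold none. These matches describe the letters of the windows and name no bound factor.

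In level, the 5 genes differed widely. Per kilobase of exon in the annotation, Gabrb2 averaged 25.7 ± 4.07 CPM (SD, n = 416) and Gabrd 22.9 ± 3.32. Gabrg3 averaged 8.99 ± 1.63, Gabra3 7.97 ± 3.18 and Gabra5 3.78 ± 2.50 CPM per kilobase. Gabrb2 averaged above Gabrd, but their spreads overlapped and the order was not fixed: Gabrb2 was the higher in 70.7% of the 416 libraries. The same holds for Gabrg3 and Gabra3, with Gabrg3 the higher in 70.9%. Between these pairs the order was nearly fixed, since Gabrd exceeded Gabrg3 per kilobase in all 416 libraries and Gabra3 exceeded Gabra5 in 99.5%.

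Of the other listed subunits, Gabra6, Gabrp and Gabrr3 did not pass the filter. Per kilobase, both Gabrb2 and Gabrd were below Gabra4 (36.1 ± 4.77 CPM per kilobase), the alpha subunit that pairs with delta. Gabrb2 and Gabra2 (25.1 ± 4.37) could not be ordered: Gabrb2 was the higher in 47.6% of libraries. Gabrg3, Gabra3 and Gabra5 averaged less than Gabrb1 (14.3 ± 1.89), another beta subunit. Gabrg1, Gabrr2, Gabrq, Gabrr1 and Gabre averaged less than every member, at most 2.47 CPM per kilobase.

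Gabra5 was the lowest of the members and the one whose count is least certain. Its level was 11.2 ± 7.44 CPM, with 2.73 the lowest, 10.4 the median and 113.8 the highest. Its deposited counts were not whole in 99.3% of libraries, while those of the other 4 members were whole in all. Added to those of Gm9962, an antisense gene that overlaps 4.98% of its exon bases, they were whole in 98.8% of libraries (within 0.001). Reads of the shared bases were thus divided between both genes by the deposited counting, and Gm9962 holds a median of 14.9% of their sum (1.40% to 53.02%). Gm9962 also begins within the promoter window of Gabrg3 shown above, on the other strand.

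Spread between libraries was widest for Gabra5 and Gabra3. The coefficient of variation (SD over mean) was 66.2% for Gabra5 and 39.8% for Gabra3, against 18.1% for Gabrg3, 15.9% for Gabrb2 and 14.5% for Gabrd, and a median of 20.99% over all genes tested. Among genes of similar mean level (within 0.5 on the log2 scale), the spread of Gabra5 lay at percentile 97.5 and that of Gabra3 at percentile 96.3. Gabrg3, Gabrb2 and Gabrd lay at percentiles 88.3, 83.95 and 76.7. Counting error would give a coefficient of variation of 1.21% (Gabrb2) to 4.72% (Gabra5) at the median counts, well under every measured spread. Without the 29 libraries that stand apart, the coefficient of variation of Gabra5 was 29.5%, that of Gabra3 33.8% and that of Gabrb2 10.9%.

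The highest levels of Gabra5, Gabrb2 and Gabra3 lay in a few libraries that also had high markers of tissue next to the striatum. This did not hold for every extreme. The library highest in Gabrg3 (male G22 replicate 32, 157.3 CPM) did not stand apart. Nor did the library lowest in Gabra3 (male G21 replicate 39, 15.3 CPM). Gabra5 reached 113.8 and 97.8 CPM in male G22 replicates 29 and 31, which is 10.9 and 9.37 times the median, while no other library exceeded 23.4 CPM. They were the 2 highest of all libraries in C1ql2, a gene of dentate granule cells, with 17.1 and 8.51 CPM (median 0.503). Prox1, a transcription factor of the dentate gyrus and thalamus, had 138.5 and 115.3 CPM there (median 28.99). Other hippocampal marker genes were high there too: Spink8 had 14.1 and 7.95 CPM (median 0.736) and Fibcd1 62.9 and 56.6 CPM (median 9.26). Neurod6, of the cortical list, had 138.3 and 118.3 CPM (median 2.47). Male G22 replicate 29 is also among the libraries whose Xist level went against the label. Gabrd was among its 3 lowest values in both, at 22.1 and 35.3 CPM. In these 2 libraries, then, the alpha 5 gene was above its range elsewhere and the delta gene was low.

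Gabrb2 was highest in female G21 replicate 34 (400.3 CPM), male G21 replicate 35 (344.4) and female G21 replicate 1 (332.6), against 238.5 CPM in the next library. Prkcd, a marker of thalamic relay neurons, had 1352, 917 and 534 CPM there, against a median of 5.17. Gabrd was at its highest in the first 2 of these (113.04 and 112.9 CPM), where Gabra5 had only 2.73 and 5.17 CPM, and Gabrg3 was at its lowest, 44.01 CPM, in female G21 replicate 34. In that library the spiny neuron genes Drd1 and Adora2a had 1.53 and 1.40 CPM, so it held little striatal RNA by these markers. Gabra3 was highest in female G21 replicate 30 (110.7 CPM, 4.12 times the median), followed by male G23 replicate 10 (85.7). Both had high cortical genes: Tbr1, a transcription factor of cortical excitatory neurons, had 33.6 and 113.35 CPM there, against a median of 7.18. The part of the neighbouring tissue in these levels was not tested, beyond the fits that leave these libraries out.

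**Figure D1:**
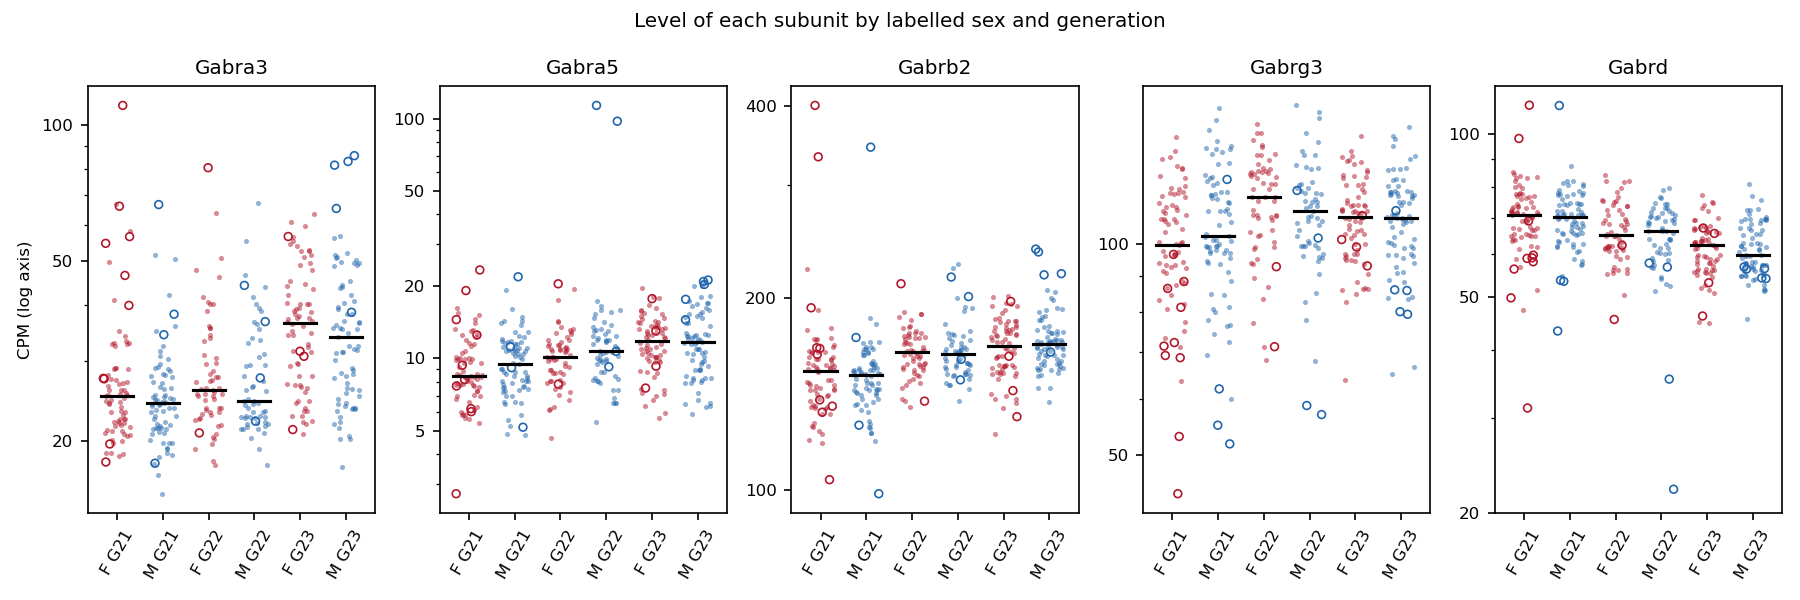
Level of each subunit in CPM (log axis) in the 416 libraries, by labelled sex (F, red; M, blue) and generation (G21, G22, G23); each point is a library, open circles are the 29 libraries that stand apart, and black bars are group medians. Gabra3 was highest in generation 23 in both sexes, Gabrd fell by steps, and 2 male G22 libraries stood alone for Gabra5 at 113.8 and 97.8 CPM.

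Between the sexes, no member passed the test. Gabra3, although X-linked, had 17.6, 27.3 and 110.7 CPM (lowest, median, highest) in libraries labelled female, against 15.3, 26.2 and 85.7 in those labelled male. The ranges overlapped almost fully, and the difference was 0.08 ± 0.05 (95% interval -0.01 to 0.17; edgeR's quasi-likelihood test, Benjamini-Hochberg adjusted p = 0.358). Gabra5 averaged 10.5 ± 3.31 CPM in libraries labelled female and 12.0 ± 9.96 in those labelled male, and its difference of -0.17 ± 0.05 narrowly missed the threshold (edgeR adjusted p = 0.0571). Its medians were 10.1 and 10.7 CPM in libraries labelled female and male. With the libraries that stand apart left out, the difference for Gabra5 was -0.05 (edgeR adjusted p = 0.474). By generation it was -0.06, -0.45 and -0.06 in generations 21, 22 and 23, none past the threshold alone, the second of which holds the 2 high male libraries.

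Gabrb2, Gabrg3 and Gabrd differed by no more than 0.02 between the sexes. The 95% intervals were -0.04 to 0.03 for Gabrb2, -0.07 to 0.04 for Gabrg3 and -0.02 to 0.05 for Gabrd. So 0 of 5 members was called by edgeR, and 0 by DESeq2 or limma voom, with 1 (Gabra5) at an unadjusted p under 0.05. Over all genes tested, 2.86% were called. Among other subunits, Gabra4, Gabre and Gabrq had an unadjusted p under 0.05 and were not called by edgeR. The sex by generation interaction called 0 of 5 members (edgeR, DESeq2 and limma voom), again with 1 (Gabra5) at an unadjusted p under 0.05, against 0.322% of all genes in edgeR.

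Generation was where the members differed. All 5 passed the test between generations 23 and 21, 4 of them higher and Gabrd lower in generation 23. Among all genes tested, 25.8% were called higher and 32.6% lower, so that a call in this comparison is common. Between generations 22 and 21, 3 members were called higher (Gabra5, Gabrb2 and Gabrg3; 22.1% of all genes) and Gabrd lower (24.5% of all genes). Between generations 23 and 22, Gabra3 was called higher (8.53% of all genes) and Gabrd lower (9.63%). The median log2 fold change of the members was 0.14, 0.10 and -0.02 in these 3 comparisons, against -0.02, -0.01 and -0.01 over all genes tested. Both comparisons with generation 21 share its libraries.

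Gabra3, the alpha 3 gene, had the largest difference of the members between generations 23 and 21 when no marker scores were in the fit. Its lowest, median and highest levels were 15.3, 24.5 and 110.7 CPM in generation 21, 17.6, 25.6 and 80.6 in generation 22, and 17.5, 35.4 and 85.7 in generation 23. The ranges overlapped while the median stood clearly apart in generation 23 alone. The difference was 0.42 ± 0.05 between generations 23 and 21 (edgeR adjusted p = 1.87e-12), a 1.33-fold higher level, and 0.34 ± 0.06 between generations 23 and 22 (edgeR adjusted p = 4.87e-06). Between generations 22 and 21 it was 0.08 ± 0.06 (edgeR adjusted p = 0.27). Leaving out the libraries that stand apart made it 0.15 (edgeR adjusted p = 0.013), so that whether it passes rests on those libraries.

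Gabra5, the alpha 5 gene, was higher in both later generations than in generation 21. It had 2.73, 8.84 and 23.4 CPM (lowest, median, highest) in generation 21, 4.66, 10.6 and 113.8 in generation 22, and 5.67, 11.7 and 21.3 in generation 23. The medians thus climbed while the ranges overlapped. The difference was 0.32 ± 0.06 between generations 23 and 21 (edgeR adjusted p = 5.33e-06) and 0.33 ± 0.07 between generations 22 and 21 (edgeR adjusted p = 8.13e-06). Leaving out those that stand apart, that between generations 22 and 21 was 0.16 (edgeR adjusted p = 0.00532). In the libraries labelled female alone it was 0.14 and missed the threshold (edgeR adjusted p = 0.134), against 0.52 in those labelled male (edgeR adjusted p = 0.000105). The libraries labelled male in generation 22 include replicates 29 and 31, at 113.8 and 97.8 CPM. From generation 21 to 22 the median went from 8.46 to 10.2 CPM in libraries labelled female. In those labelled male it went from 9.51 to 10.7 CPM. Between generations 23 and 22 the difference was -0.02 ± 0.07 (edgeR adjusted p = 0.891). Without the libraries that stand apart it was 0.16 and called (edgeR adjusted p = 0.0147). With Gm9962 added to its counts, the differences were 0.29 for generations 23 and 21, 0.28 for generations 22 and 21, and 0.01 for generations 23 and 22.

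Gabrb2, the beta 2 gene, was slightly higher in the later generations. It had 98.7 CPM (lowest) and 400.3 CPM (highest), with a mean of 154.4, in generation 21, 134.8 and 226.3 with a mean of 165.7 in generation 22, and 122.4 and 238.5 with a mean of 169.99 in generation 23. Generation 21 had both the lowest library and the highest ones. The difference was 0.14 ± 0.02 between generations 23 and 21 (edgeR adjusted p = 2.2e-08), 0.10 ± 0.02 between generations 22 and 21 (edgeR adjusted p = 0.000158), and 0.04 ± 0.02 between generations 23 and 22 (edgeR adjusted p = 0.311). In the libraries labelled female alone, the difference between generations 22 and 21 was 0.07 and missed the threshold (edgeR adjusted p = 0.13).

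Gabrg3, the gamma 3 gene, had the smallest difference of the members between generations 23 and 21 when no marker scores were in the fit. It had 44.01, 100.7 and 155.8 CPM in generation 21, 57.1, 113.1 and 157.3 in generation 22, and 63.99, 108.8 and 146.6 in generation 23. Its middle generation was thus the highest by median, and the ranges were nearly the same. The difference was 0.13 ± 0.03 between generations 22 and 21 (edgeR adjusted p = 0.000335) and 0.08 ± 0.03 between generations 23 and 21 (edgeR adjusted p = 0.0233). Between generations 23 and 22 it was -0.05 ± 0.03 (edgeR adjusted p = 0.271). Without the libraries that stand apart, the difference between generations 23 and 21 was 0.05 and missed the threshold (edgeR adjusted p = 0.123). In the libraries labelled male alone it was 0.04 (edgeR adjusted p = 0.521) and between generations 22 and 21 0.07 (edgeR adjusted p = 0.265).

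Gabrd, the delta gene, was the one member that fell. It had 31.3, 70.7 and 113.04 CPM in generation 21, 22.1, 65.7 and 83.9 in generation 22, and 44.9, 61.4 and 81.02 in generation 23. Both the median and the highest library were lower in each later generation. The difference was -0.19 ± 0.02 between generations 23 and 21 (edgeR adjusted p = 2.06e-14), which is a 1.14-fold lower level. It was -0.10 ± 0.02 between generations 22 and 21 (edgeR adjusted p = 0.000168) and -0.09 ± 0.02 between generations 23 and 22 (edgeR adjusted p = 0.00441). In each sex alone the difference between generations 23 and 21 was -0.19. Between generations 23 and 22 it was -0.11 in the libraries labelled female and -0.07, short of the threshold, in those labelled male (edgeR adjusted p = 0.215).

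Markers of other cells moved with generation beside these genes. Of 9 cortical excitatory neuron genes, 8 were higher and 0 lower in generation 23 than in generation 21, with a median of 1.18, and 6 were higher and 1 lower in generation 22 than in generation 21. Their summed level ran from 18.8 to 784 CPM (median 180.3) in generation 23 and from 19.7 to 794 CPM (median 43.03) in generation 21, with Neurod1 listed at 0 in 34 libraries and Emx1 in 4. All 7 thalamic relay neuron genes were called lower in both later generations than in generation 21. Their summed level had similar medians of 43.1, 42.7 and 44.5 CPM in generations 21, 22 and 23. Its highest values were 2609, 101.4 and 231.8 CPM, and generation 21 holds the libraries high in thalamic genes described above. Of 8 genes of all spiny neurons, 5 were lower and 0 higher in generation 23 than in generation 21 (median -0.10). When scores of 6 marker lists were added to the fit (cortical, thalamic, spiny, oligodendrocyte, astrocyte and choroid plexus, each the mean log2 CPM of its genes), the difference for Gabra3 between generations 23 and 21 was 0.02 (edgeR adjusted p = 0.679) and that for Gabra5 -0.02 (edgeR adjusted p = 0.748). That for Gabrb2 was 0.07 (edgeR adjusted p = 3.4e-05) and that for Gabrd -0.09 (edgeR adjusted p = 7.76e-05). That for Gabrg3 was larger than without these covariates, at 0.13 (edgeR adjusted p = 2.21e-05). Between generations 23 and 22 the same fit gave 0.03 for Gabra3 and -0.02 for Gabrd, both short of the threshold (edgeR adjusted p = 0.541 and 0.598), while Gabra5 was called at -0.15 (edgeR adjusted p = 0.032). Between generations 22 and 21 it called Gabra5 at 0.13 (edgeR adjusted p = 0.0128) and Gabrb2 at 0.11 (edgeR adjusted p = 2.53e-11). Gabrg3 was called there at 0.12 (edgeR adjusted p = 5.1e-05) and Gabrd at -0.07 (edgeR adjusted p = 0.00218), while Gabra3 was not (-0.02, edgeR adjusted p = 0.64).

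**Figure D2:**
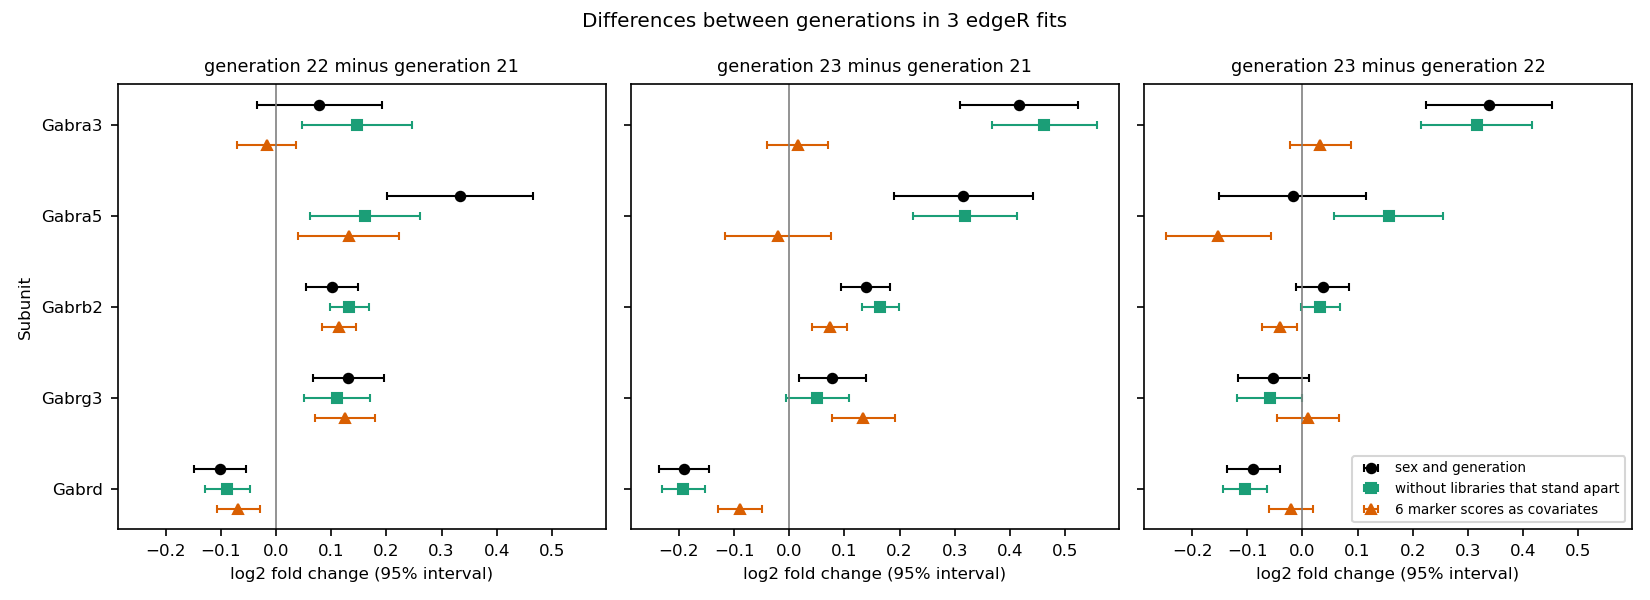
Log2 fold change with its 95% interval for each subunit and pair of generations in 3 edgeR fits: sex and generation as terms (circles), the same without the 29 libraries that stand apart (squares), and with 6 marker scores added as covariates (triangles). With the marker scores, the difference for Gabra3 between generations 23 and 21 was 0.02 in place of 0.42, while that for Gabrg3 was 0.13 in place of 0.08.

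Other subunits also differed by generation. Gabra2 (0.12), Gabra4 (0.08) and Gabrb1 (0.07) were higher in generation 23 than in generation 21, and likewise in generation 22 than in generation 21 (0.12, 0.11 and 0.10). Gabrq (-0.27), Gabre (-0.25) and Gabrr1 (-0.23) were called lower in generation 23 than in generation 21, and all of these averaged under 1 CPM. Gabra4, the alpha partner of delta, was thus called higher, and Gabrd lower, in the comparisons with generation 21. Gabrd was also lower in generation 23 than in generation 22, where Gabra4 averaged 223.2 and 226.7 CPM.

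Of 20 genes for clustering, assembly and trafficking of the receptor, 7 were higher and 6 lower in generation 23 than in generation 21, with a median of -0.02 as over all genes. The largest rises were those of Iqsec3 (0.25), an exchange factor that binds gephyrin at inhibitory synapses, Dmd (0.24), dystrophin, Slitrk3 (0.07), a synaptic adhesion protein, and Rdx (0.06), radixin, which anchors alpha 5 receptors. The largest falls were those of Hap1 (-0.24), an adaptor that carries receptors to the surface, Gabarap (-0.18), a trafficking protein that binds the receptor, Clptm1 (-0.15), which holds receptors inside the cell, and Nlgn2 (-0.12), the neuroligin of inhibitory synapses. Between generations 22 and 21, 5 were higher and 6 lower, led by Dmd (0.15) and Hap1 (-0.23), and between generations 23 and 22, 3 were higher and 3 lower, led by Iqsec3 (0.30) and Nlgn2 (-0.06). Gphn, gephyrin itself, rose by 0.07 between generations 22 and 21 and by 0.04 between generations 23 and 21.

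Over the libraries, the members other than Gabrg3 fell into 2 sets. Gabra3, Gabra5 and Gabrb2 varied together over all 416 libraries, and Gabrd varied against them. In generation 21 alone Gabrb2 went neither with Gabra5 nor against Gabrd. Correlations are of log2 CPM over all 416 libraries, which share tissue content and scaling, and each p comes from 100000 permutations, two-sided, with Benjamini-Hochberg adjustment over the 10 pairs. The smallest p these can give is 1e-05. How many pairs of other genes would pass was not computed. Of the 10 pairs, 9 were past an adjusted p of 0.05. The strongest positive one was Gabra3 with Gabra5, with Pearson's r of 0.62 and Spearman's rho of 0.63 (permutation p = 1e-05 for both). Leaving out the 2 libraries farthest from the median of Gabra3 gave 0.61, and within generations 21, 22 and 23 r was 0.53, 0.49 and 0.77.

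Gabra3 with Gabrb2 gave r = 0.59 and rho = 0.59 (permutation p = 1e-05 for both), 0.60 without the 2 farthest libraries, and 0.41, 0.68 and 0.76 within the 3 generations. Gabrd was negative with both alpha subunits. With Gabra5, r was -0.62 and rho -0.49 (permutation p = 1e-05 for both), -0.54 without the 2 farthest libraries, and -0.55, -0.64 and -0.52 within the generations. With Gabra3, r was -0.57 and rho -0.56 (permutation p = 1e-05 for both), -0.55 without the 2 farthest libraries, and -0.46, -0.49 and -0.62 within the generations. These 4 pairs kept their sign in each generation.

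Among the weaker pairs, those of Gabrb2 with Gabra5 and with Gabrd depended on the generation. Gabra5 with Gabrb2 gave r = 0.31 and rho = 0.42 (permutation p = 1e-05 for both) and 0.28 without the 2 farthest libraries, yet -0.07 in generation 21, 0.46 in generation 22 and 0.58 in generation 23. Gabrb2 with Gabrd gave r = -0.28 and rho = -0.41 (permutation p = 1e-05 for both) and -0.44 without the 2 farthest libraries and -0.48 without those that stand apart, with 0.04, -0.39 and -0.47 in the 3 generations. Generation 21 holds the 3 libraries high in thalamic genes, in 2 of which Gabrb2 and Gabrd were both at their highest. Gabra3 with Gabrg3 gave r = -0.30 and rho = -0.25 (permutation p = 1e-05 for both), -0.28 without the 2 farthest libraries, -0.18 without those that stand apart, and -0.34, -0.44 and -0.37 within the generations. Gabrb2 with Gabrg3 gave r = -0.21 (permutation p = 2e-05) and rho = -0.14 (permutation p = 0.004), -0.11 without the 2 farthest libraries, and -0.21, -0.39 and -0.40 within the generations. Without the libraries that stand apart it was -0.06 (adjusted permutation p = 0.264).

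Gabrg3 with Gabrd gave r = 0.14 (permutation p = 0.00577) and rho = 0.10 (permutation p = 0.0371), 0.16 without the 2 farthest libraries, and -0.02, 0.45 and 0.32 within the generations. Without the libraries that stand apart it was 0.02 (adjusted permutation p = 0.7). The neighbouring genes Gabra5 and Gabrg3 gave r = 0.02 (permutation p = 0.75) and rho = 0.10 (permutation p = 0.0465), 0.13 without the 2 farthest libraries, and 0.18, -0.28 and -0.04 within the generations, so that its sign was not the same in each. With the libraries that stand apart left out it was 0.19 and past the threshold (adjusted permutation p = 0.000625). On residuals from sex, generation and the 6 marker scores, 5 of the 10 pairs remained past the threshold: Gabra3 with Gabrb2 at 0.23, with Gabra5 at 0.20 and with Gabrd at -0.19, and Gabra5 with Gabrd at -0.30 and with Gabrg3 at 0.29. The last of these was not called by r over all 416 libraries without that step. On the same residuals Gabra5 with Gabrb2 was 0.007 and Gabrb2 with Gabrd -0.05, neither past the threshold.

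**Figure D3:**
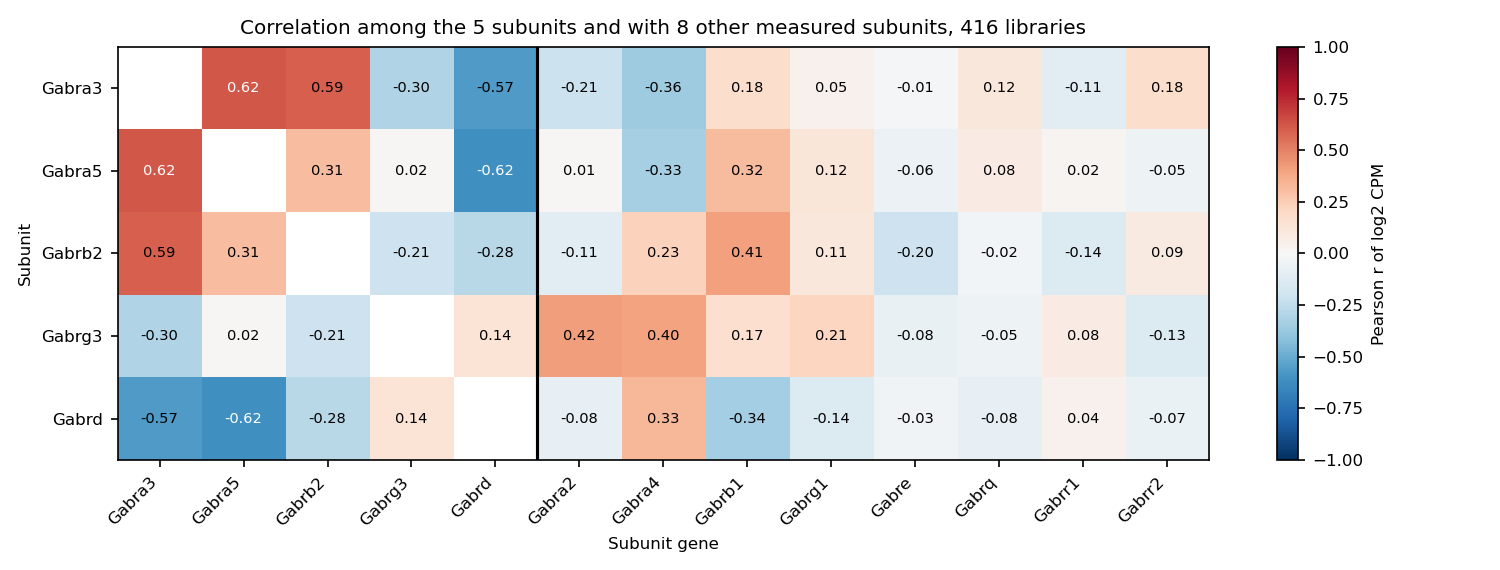
Pearson's r of log2 CPM over 416 libraries between each of the 5 subunits (rows) and the other members (left of the black line) or 8 other measured subunits (right of it). Gabra3, Gabra5 and Gabrb2 were positive with each other, and Gabrd was negative with all of these.

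Marker scores of cell types followed the same split. For the 75 correlations of 5 members with 15 marker scores, adjusted over all 75, 60 were past the threshold. How many other genes would pass was not computed, and weak values passed with 416 libraries. Gabra3 with the choroid plexus score was past it at r = -0.12 (adjusted permutation p = 0.016). Gabra3 followed the cortical excitatory score with r = 0.86 and rho = 0.83 (permutation p = 1e-05 for both), 0.87 without the 2 farthest libraries and 0.87 without the 29 that stand apart. Within generations 21, 22 and 23 it was 0.75, 0.86 and 0.91. Per doubling of the cortical genes, Gabra3 was higher by 0.27 on the log2 scale. The cortical score alone held 74.4% of the variance of Gabra3, against a median of 1.70% over all genes tested.

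Gabra5 followed the cortical score with r = 0.64 and rho = 0.64 (permutation p = 1e-05 for both), 0.65 without the 2 farthest libraries, and 0.50, 0.58 and 0.78 within the generations. With Gm9962 added to its counts r was 0.63. Its correlation with the hippocampal score was 0.31 (permutation p = 1e-05), but 0.01 without the 2 farthest libraries, and rho was 0.01, so that this relation rests on male G22 replicates 29 and 31. Gabrd ran against the cortical score, with r = -0.59 and rho = -0.58 (permutation p = 1e-05 for both), -0.59 without the 2 farthest libraries, and -0.39, -0.58 and -0.63 within the generations.

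Gabrb2 was positive with the cortical score (r = 0.47, rho = 0.53, permutation p = 1e-05 for both; 0.53 without the 2 farthest libraries; 0.13, 0.63 and 0.68 within the generations) and with the thalamic score (r = 0.53, rho = 0.32, permutation p = 1e-05 for both; 0.37 without the 2 farthest libraries; 0.28 without those that stand apart; 0.68, 0.39 and 0.40 within the generations). It was negative with the genes of all spiny neurons (r = -0.59, rho = -0.39, permutation p = 1e-05 for both; -0.50 without the 2 farthest libraries; -0.62, -0.55 and -0.67 within the generations). Gabrg3 was the mirror of this. It was positive with the genes of all spiny neurons (r = 0.50, rho = 0.35, permutation p = 1e-05 for both; 0.47 without the 2 farthest libraries; 0.28 without those that stand apart; 0.52, 0.59 and 0.47 within the generations) and negative with the thalamic score (r = -0.42, rho = -0.33, permutation p = 1e-05 for both; -0.37 without the 2 farthest libraries; -0.24 without those that stand apart; -0.50, -0.34 and -0.26 within the generations). Gabrg3 and Gabrd were the members positive with the spiny neuron score, Gabrd at r = 0.34 and rho = 0.64, with 0.65 without the libraries that stand apart and 0.07, 0.81 and 0.62 within the generations.

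**Figure D4:**
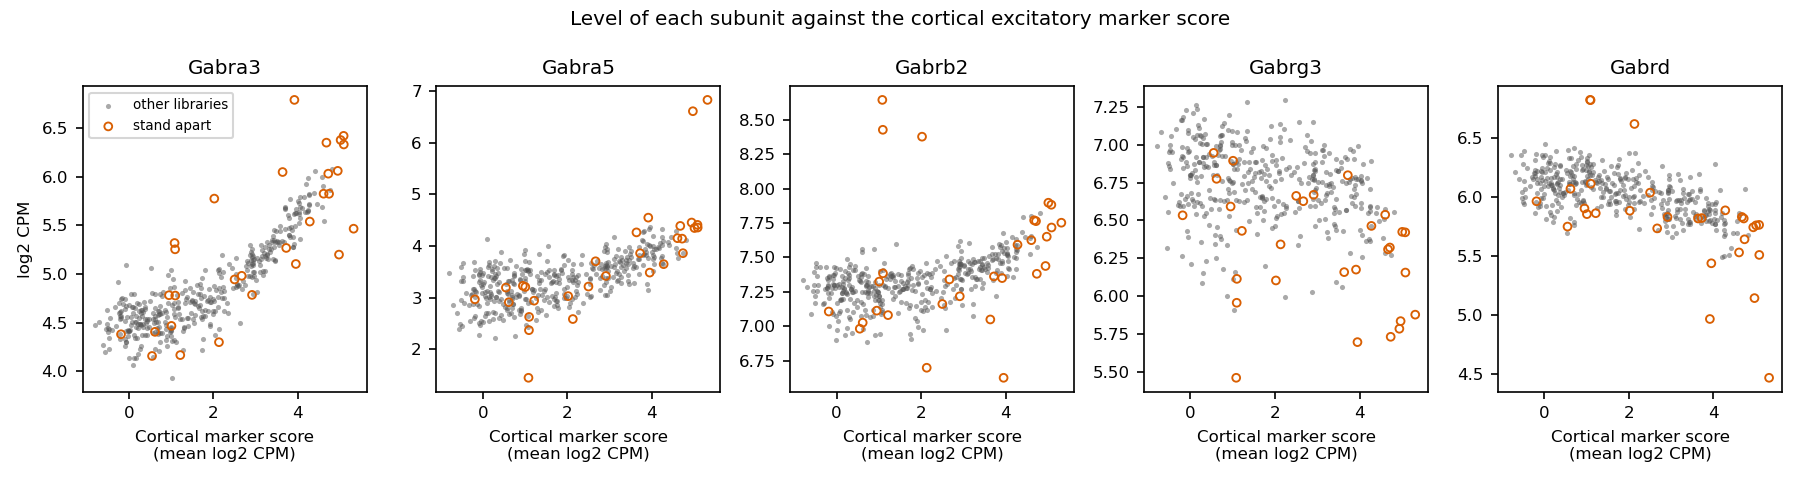
Log2 CPM of each subunit against the cortical excitatory marker score (mean log2 CPM of 9 genes) in 416 libraries; each point is a library, and open orange circles are the 29 that stand apart. Gabra3 climbed with the score (r = 0.86), Gabra5 and Gabrb2 climbed less (0.64 and 0.47), and Gabrg3 and Gabrd declined (-0.31 and -0.59).

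The score of GABA interneurons, whose 8 genes also mark cortical interneurons, gave r = 0.74 for Gabra3, 0.57 for Gabra5 and 0.32 for Gabrb2, against -0.32 for Gabrg3 and -0.50 for Gabrd (adjusted permutation p = 1.79e-05 for each). Glial and vascular scores went less with the members. For astrocytes, oligodendrocytes, microglia, choroid plexus and endothelial cells the values lay between -0.33 and 0.26. Together the 6 scores held 79.9% of the variance of Gabra3, 56.3% of that of Gabrb2, 49.3% of Gabra5, 46.04% of Gabrd and 32.4% of Gabrg3, against a median of 10.6% over all genes tested. Generation alone held 14.3%, 11.5%, 7.57%, 12.7% and 4.29% in the same order, against a median of 2.55%. The part of tissue content in the generation differences was not tested beyond the fit with these scores.

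**Figure D5:**
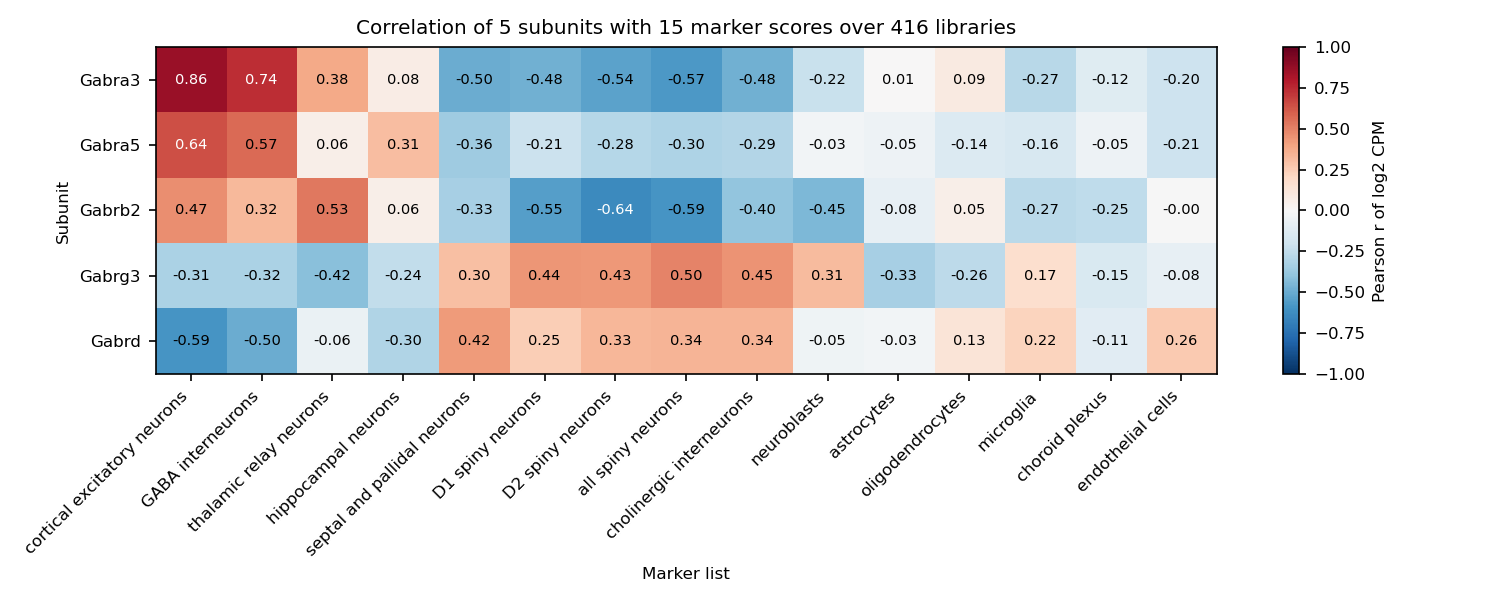
Pearson's r of log2 CPM over 416 libraries between each of the 5 subunits (rows) and the scores of 15 marker lists (columns). Gabra3 had the strongest value, 0.86 with cortical excitatory neurons, and Gabrg3 and Gabrd were positive with the spiny neuron lists where the other 3 were negative.

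With the other subunits, 55 correlations were computed, and 35 were past the threshold after adjustment over the 55. The share of other genes past it was not computed here either. Gabrb2 was positive with Gabrb1 (r = 0.41, rho = 0.32, permutation p = 1e-05 for both; 0.41 without the 2 farthest libraries; 0.51, 0.27 and 0.03 within the generations), and 0.33 on residuals from sex, generation and the 6 marker scores. Gabra3 was negative with Gabra4 (r = -0.36, rho = -0.32, permutation p = 1e-05 for both; -0.34 without the 2 farthest libraries; -0.31, -0.57 and -0.67 within the generations), and so was Gabra5 (r = -0.33, rho = -0.26, permutation p = 1e-05 for both; -0.29 without the 2 farthest libraries; -0.20 without those that stand apart; -0.32, -0.53 and -0.53 within the generations). On the residuals these were -0.12 and -0.06. Gabrg3 was positive with Gabra4 (r = 0.40, rho = 0.38, permutation p = 1e-05 for both; 0.42 without the 2 farthest libraries; 0.35, 0.55 and 0.23 within the generations), and 0.22 on the residuals. Gabrd was positive with Gabra4 (r = 0.33, permutation p = 1e-05; rho = 0.23, permutation p = 2e-05; 0.28 without the 2 farthest libraries; 0.13 without those that stand apart; 0.35, 0.62 and 0.47 within the generations), and 0.08 on the residuals.

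Among 12546 named genes whose log2 CPM averaged 1 or more, the genes most like each member were found by Pearson's r of residuals from the 6 group means over 416 libraries, as a description with no test. For Gabra3 they were Vsnl1 (0.91), a neuronal calcium sensor, Ncald, Elavl4, Olfm1 and Basp1, all at 0.89 or above. Ryr3 (-0.77) and Pard3 (-0.74) ran most against it. For Gabra5 they were Epha5 (0.74), Gprin1, Pde1a, Mpped1 and Fam131a (0.69), with Six3 (-0.63) and Pcp4l1 (-0.62) most against it. Without the libraries that stand apart, Vsnl1 still ranked 1 for Gabra3, while the value of Fam131a for Gabra5 was 0.53. All genes named for Gabra5 had weaker values without these libraries. Six3 was then at -0.44 and Pcp4l1 at -0.45, while Pde1a ranked 2 at 0.66.

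For Gabrb2 the most alike genes included Ttbk2 (0.84), Megf9 (0.81), Smim13 (0.80) and Scn1a (0.80), the last of these a sodium channel, with Celsr1 (-0.72) and Kif27 (-0.67) most against it. For Gabrg3 they were Foxp2 (0.63), a transcription factor of spiny neurons, Flrt3 (0.62), Runx1t1 (0.61), Scmh1 (0.61) and Pbx3 (0.60), with Sipa1l2 (-0.59) and Nr2f1 (-0.58) most against it. For Gabrd they were Ndrg4 (0.69), Grm4 (0.69), a metabotropic glutamate receptor, Lrtm2 (0.66), Fam20c (0.62) and Rgs8 (0.62), with Tcf4 (-0.68) and Nfib (-0.68) most against it. Without the libraries that stand apart, all genes named here for Gabrb2, Gabrg3 and Gabrd had weaker values. Kif27 was then at -0.42 for Gabrb2, and Foxp2 ranked 6 for Gabrg3 at 0.47. For Gabrd, Ndrg4 ranked 39 at 0.53, and Rgs8 was at 0.45. Ranks changed less for Ttbk2, which was 3 for Gabrb2 at 0.72. Nfib was still 2 among the genes most against Gabrd, at -0.59. With all 416 libraries, nearest values differed in size between members, from 0.91 for Gabra3 to 0.63 for Gabrg3, whose pattern was thus the least shared.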

How the data were processed

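Each library is the striatal RNA of 1 mouse, hemisected brain kept in RNAlater, ribosome-depleted, stranded and read as pairs, per the labels' protocols. The authors deposited estimated counts per Ensembl gene, of which 20.0% were not whole (tolerance 0.001), and the aligner and genome build are not given in the sources used here. Rounding the deposited counts to integers changed 0.00502% of their total. Of 46517 IDs, 98.9% matched GENCODE M21, and no column of another series was used (0 left out). Genes were kept by edgeR's filterByExpr (minimum count 10), leaving 22968 and dropping 23549, and scaled by TMM. Log2 CPM used a prior count of 2.

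The main test was edgeR's quasi-likelihood test (edgeR 4.0.16, limma 3.58.1, R 4.3.3) on sex plus generation, and a further fit with their interaction, adjusted by Benjamini-Hochberg over all genes tested at 0.05. SEs came from the fold change and its F statistic. DESeq2 1.42.0 and limma voom were alternatives. Correlations were computed in Python 3.11.15 (numpy 2.4.6, scipy 1.17.1). The fits were tested on simulated data. The genes named are the members, the other subunits, up to 4 trafficking genes per direction and the 5 most alike and 2 most opposite genes of each member. Some genes that this rule names are not reported here.

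A library stands apart if its total is under 0.5 of the median or its median correlation with the others is over 4 scaled median absolute deviations below the median. Xist went against the label at a limit of 100 CPM. The members, the gene lists and this limit were chosen with earlier results of these data known. The sum of Gabra5 and Gm9962, and the family of 55 correlations with other subunits, were added after seeing the data.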

Additional observations from a re-analysis of the deposited data

How the results depend on the processing

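RLE size factors changed no direction and no call of a member. A prior count of 0.5 changed none among the pairs of members and the marker scores, and among the 35 correlations with other subunits it lost that of Gabra3 with Gabrr1 (-0.10, adjusted permutation p = 0.0668, against -0.11 and 0.0456). With the 6 marker scores as covariates, 3 members were called between generations 23 and 21 and 1 between generations 23 and 22, against 5 and 2 without them. Without the scores, 25.8% of all genes were called higher and 32.6% lower between generations 23 and 21. The share with the scores is not given here, so the 3 called members cannot be set against it. Between generations 22 and 21 the same members were called with the scores as without them. In the fit with the scores 1671 genes were called between generations 23 and 22, against 4171 without the scores. Genes called between the sexes numbered 656, against 987 with the marker scores, 1094 without the libraries whose Xist went against the label and 1351 without those that stand apart. For the interaction, 0.322% of genes with an adjusted p were called, against 0.286% of a larger number with no filter, 0.175% at a mean CPM of at least 1, 0.192% with total count and mitochondrial share as covariates, 0.0697% with the marker scores, 0.182% without the libraries against their Xist, 0.0917% without those that stand apart, 0.126% without the most extreme library of each member, 0.141% by DESeq2 and 0 by limma voom. On residuals from sex, generation and the 6 scores 5 member pairs were called, against 9, and in generation 22 alone 21 correlations with other subunits, against 35.

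Some small values changed sign, and the cause was not tested. Between the sexes, Gabrb2 was 0.0007 with total count and mitochondrial share and 0.0484 in generation 21 alone, and Gabrg3 0.0383 in generation 22 alone and 0.0059 in generation 23 alone. With the marker scores, Gabra5 was -0.0205 between generations 23 and 21, and Gabra3 -0.0171 between generations 22 and 21. Between generations 23 and 22, that fit gave Gabrb2 -0.041 and Gabrg3 0.01. There Gabra5 was 0.0074 with total count and mitochondrial share, 0.0686 without the libraries against their Xist, 0.16 without those that stand apart, 0.0818 without the extreme libraries, 0.0061 with Gm9962, 0.0945 by limma voom and 0.18 in libraries labelled female alone. Among correlations, generation 21 alone gave -0.0726 for Gabra5 with Gabrb2, 0.0435 for Gabrb2 with Gabrd and -0.0207 for Gabrg3 with Gabrd. Gabra5 with Gabrg3 was -0.28 and -0.0408 in generations 22 and 23 alone and -0.0318 on residuals from the 6 group means. With the 6 scores removed, Gabra3 with Gabrg3 was 0.026 and Gabrg3 with Gabrd -0.0406.

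No paired analysis was possible because the labels give the groups no shared replicate numbers. Permutation p-values under these alternatives used 10000 permutations. The tissue content of each library is known here from marker genes alone.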
